A study of Mus musculus with 66 samples.

Results

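The genes described here encode the subunits of the ionotropic and metabotropic receptors for glutamate and GABA (γ-aminobutyric acid) in the mouse hippocampus. They were taken by gene symbol: Gria (AMPA receptor), Grik (kainate), Grid (delta), Grin (NMDA) and Grm (metabotropic) genes for glutamate, and Gabr (GABA-A, rho subunits included) and Gabbr (GABA-B) genes for GABA. This rule found 47 genes among 55421 in each table, 26 for glutamate and 21 for GABA. It used symbols only, although the members were chosen with earlier results of these data known. By family they were 4 AMPA, 5 kainate, 2 delta, 7 NMDA, 8 metabotropic glutamate, 19 GABA-A and 2 GABA-B genes.

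Poly(A) RNA was sequenced from the hippocampus of inbred C57BL/6 mice that had received an injection of brain extract, for a study of age and seeded tauopathy by its title. Mice received an extract of Alzheimer's disease brain (AD) or of control brain (Ctrl), so that every group had been injected. In the cohort labelled 12 months old, there were 6 AD and 5 Ctrl libraries at 1 month post injection (mpi), then 6 of each kind at 3 mpi and 7 of each kind at 5 mpi. The cohort labelled 3 months old gave 6 AD and 5 Ctrl libraries at 1 mpi, 5 of each kind at 3 mpi, then 3 AD and 5 Ctrl libraries at 5 mpi, which makes 66 libraries in 12 groups. The labels give no transgene, sex, dose or injection site, and do not say whether the age is that at injection or at collection. Nor do they state that libraries came from different animals, and p-values here refer to the spread among libraries, which may be technical. Between 42462638 and 65907005 reads per library were assigned to genes.

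Glutamate is the main excitatory transmitter of the hippocampus and GABA its main inhibitory one. AMPA receptors carry most fast excitatory current, NMDA receptors admit calcium when glutamate binding and depolarisation coincide, kainate receptors modulate transmission, and metabotropic receptors signal through G proteins. GABA-A receptors are chloride channels built of alpha and beta subunits with a gamma or delta subunit: some gather at synapses, whereas delta- and alpha5-containing receptors lie largely outside them and carry tonic inhibition. GABA-B receptors are G protein-coupled and need both of their subunits. Which subunits are made decides a receptor's kinetics, location and drug sensitivity.

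Most GABA-A genes lie in clusters on the build GRCm38. Gabra6 and Gabrb2 lie on chromosome 11, Gabrg1, Gabra2, Gabra4 and Gabrb1 on chromosome 5, Gabrg3 and Gabra5 on chromosome 7, and Gabre, Gabra3 and Gabrq on the X chromosome. Gabrr1, Gabrr2 and Gabrd lie on chromosome 4, Gabrd at chr4:155384980-155398112. Gabra4 and Gabrb1 stand head to head on opposite strands of chromosome 5 and share 46 exon bases. RefSeq promoter windows (GRCm38.p6) were found for 32 of the 47 genes, 39 windows in all. The windows of chromosome 5 are shown because Gabra2 and Gabrb1, both lower at 5 mpi than at 1 mpi in the younger Ctrl libraries, have their starts there, and that of Grin1, the obligatory NMDA receptor subunit, because it differed between the cohorts with either extract. Capitals mark matches to the motif of EGR factors, which are activity-induced zinc finger proteins (GCGNGGGCG, read on both strands). Gabra2 (chr5:71095800-71096099, minus strand), Gabra4 (chr5:71658259-71658558, minus strand), Gabrb1 (chr5:71657671-71657970, plus strand, the first of its windows) and Grin1 (chr2:25319138-25319437, minus strand) read as follows.
Gabra2: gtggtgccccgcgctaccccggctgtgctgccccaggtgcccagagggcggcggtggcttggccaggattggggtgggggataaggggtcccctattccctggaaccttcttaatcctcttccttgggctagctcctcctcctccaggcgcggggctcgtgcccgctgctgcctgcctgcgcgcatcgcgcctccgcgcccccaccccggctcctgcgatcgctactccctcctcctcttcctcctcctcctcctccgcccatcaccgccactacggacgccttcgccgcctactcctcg
Gabra4: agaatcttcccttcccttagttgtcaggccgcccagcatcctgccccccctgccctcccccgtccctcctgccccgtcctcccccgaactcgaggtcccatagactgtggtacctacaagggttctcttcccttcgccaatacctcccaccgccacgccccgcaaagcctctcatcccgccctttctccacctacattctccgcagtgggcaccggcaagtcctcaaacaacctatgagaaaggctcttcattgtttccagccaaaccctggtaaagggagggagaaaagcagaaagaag
Gabrb1: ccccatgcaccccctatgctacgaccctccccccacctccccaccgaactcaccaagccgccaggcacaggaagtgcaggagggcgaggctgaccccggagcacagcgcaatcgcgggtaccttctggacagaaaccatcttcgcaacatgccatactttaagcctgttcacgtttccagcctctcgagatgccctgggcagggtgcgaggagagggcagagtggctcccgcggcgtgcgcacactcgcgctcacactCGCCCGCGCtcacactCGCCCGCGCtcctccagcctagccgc
Grin1: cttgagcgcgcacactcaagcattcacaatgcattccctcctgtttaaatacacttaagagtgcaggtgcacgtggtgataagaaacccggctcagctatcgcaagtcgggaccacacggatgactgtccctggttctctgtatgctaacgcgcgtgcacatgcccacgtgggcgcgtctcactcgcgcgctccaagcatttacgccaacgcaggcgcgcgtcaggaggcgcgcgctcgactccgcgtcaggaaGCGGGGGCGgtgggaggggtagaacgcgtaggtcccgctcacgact

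The window of Gabrb1 held the EGR motif at positions 259 and 275, counted from 1 at its 5′ end, and that of Grin1 at position 255, whereas those of Gabra2 and Gabra4 held none. Of the members' 39 windows, 5 held it, those of Gabrb1, Gabrb2, Gria4, Grin1 and Grm3, against 5.55% of all 32851 RefSeq windows of that length. The cyclic AMP response element TGACGTCA was in 0 member windows and in 1.79% of all windows. The NRF1 motif, also read on both strands, was in windows of Gabrb1 and Gria2 (4.60% of all windows), and TATAAA in windows of Gabra3, Gabrb2 and Grin3b (13.6%). The Gabra2 window was rich in G and C, at 70.0% against a mean of 53.8% over all windows. These matches describe the letters only.

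Levels of different genes were compared as CPM (read counts per fixed library total), scaled over all libraries together (TMM, trimmed mean of M values) and divided by the gene's exon length in kilobases. Gria1, the AMPA subunit GluA1, was the highest member at 181 CPM per kb, with group means between 163 and 195. Gabbr1, the GABA-B subunit that binds GABA, followed at 91.0, and Gabra5, the alpha subunit for which the hippocampus is the classic site, at 69.7. Every library of Gria1 lay above every library of Gabbr1. In the order of all 47 genes, the only other neighbours whose libraries did not overlap were Grin3a (4.23), an NMDA subunit that lowers calcium permeability, and Gabrg3 (2.61).

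**Figure D1:**
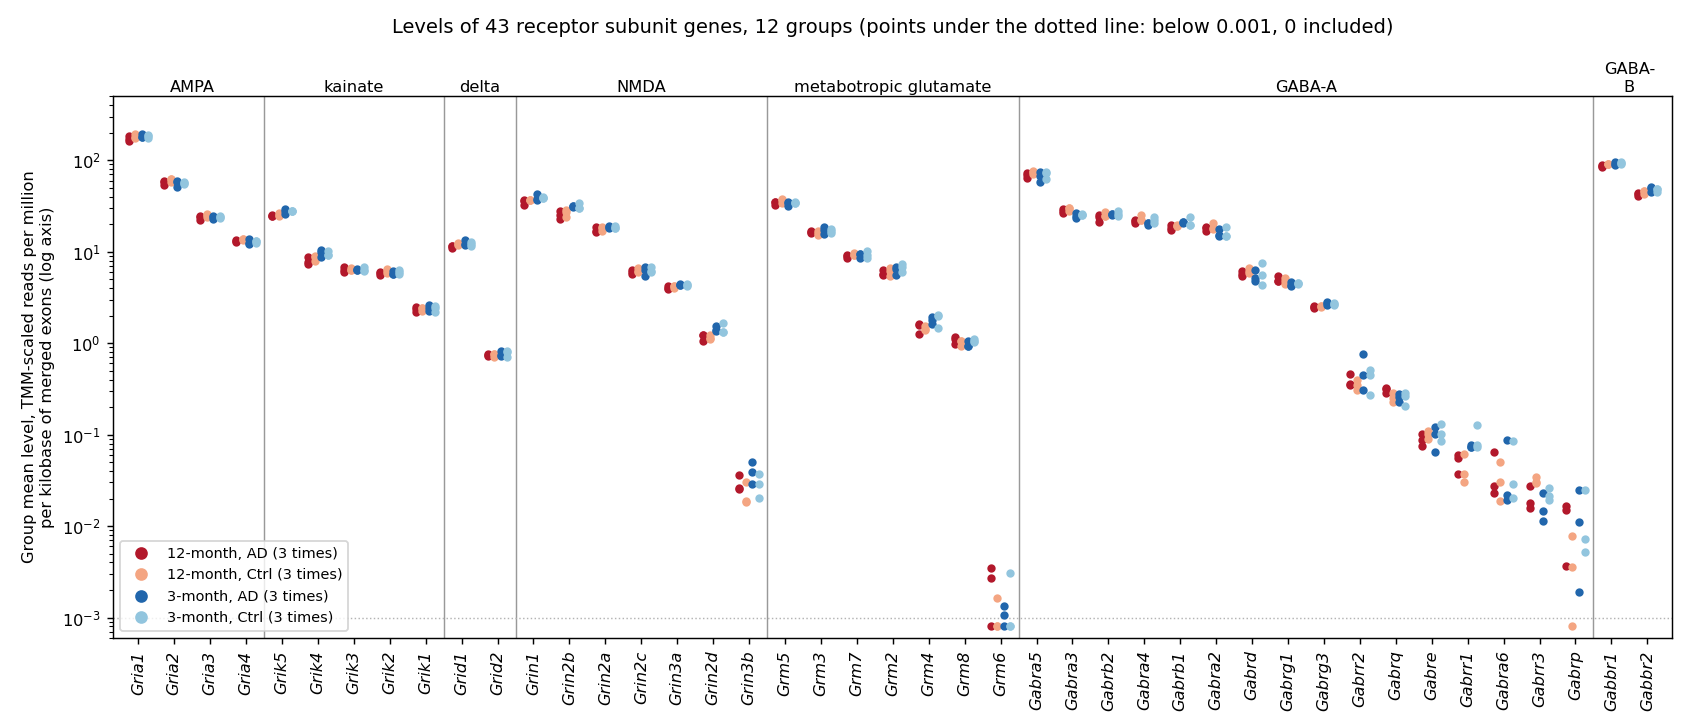
Level of receptor subunit genes in CPM per kilobase of exon (logarithmic axis), by family, with 1 point for each of the 12 groups. Gria1 stands highest at 163 to 195, and Gabrp and Grm6 lie at the foot of the axis.

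Within families, Gria1 made up 65.5% of the summed AMPA level (61.7% to 71.4% over the 66 libraries), ahead of Gria2, which makes the channel impermeable to calcium, at 20.9%. Gria3 held 8.76% and Gria4 4.79%. Grik5, a high-affinity kainate subunit that needs a partner of another type, held 52.7% of the kainate level, and the similar Grik4 17.7%. Among the GluN2 subunits, which set the decay of NMDA currents, Grin2b held 52.4%, Grin2a 33.6%, Grin2c 11.6% and Grin2d 2.40%. Grm5, coupled to phospholipase C, was the leading metabotropic receptor with 43.8% of the summed level, and Grm3, found in glia as well as neurons, held 21.1%. Grid1 made up 94.1% of the delta receptor level.

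Among GABA-A subunits, Gabra5 held 36.1% of the alpha level, a share that rests on merged exon lengths. Gabra3 held 14.0%, Gabra4, a partner of the delta subunit, 11.3% and Gabra2 9.02%. Gabrb2 held 22.8% and Gabrb1 18.0% of the beta level. Gabbr1 exceeded its partner Gabbr2 in every library, with 63.5% to 69.9% of their sum.

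The subunits known from other tissues were near 0. Gabra6, of cerebellar granule cells, averaged 0.040 CPM per kb and had 0 reads in 14 of 66 libraries. Grm6, the receptor of retinal bipolar cells, had 0 reads in 58 libraries and at most 5 reads, and Gabrp, expressed mainly outside the brain, had 0 in 35 and at most 8. Gabrr1 and Gabrr3, rho subunits best known from the retina, averaged 0.065 and 0.023, with 0 reads in 6 and 7 libraries, and Grin3b averaged 0.030. A filter on low values left 42 members for testing in the older cohort, 43 in the younger one and 44 over both. Gabrp, Grin3b and Grm6 passed in none of these, Gabra6 and Gabrr1 failed in the 12-month cohort, and Gabrr3 failed in the 3-month cohort. Exons of other genes overlapped 32.1% of the exon bases of Grin3b and 13.5% of those of Grin1, and whether counting used strand is not stated.

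The labelled tissue was checked by marker genes. The 5 markers of hippocampal excitatory neurons summed to 2696 to 4244 deposited units in the 3-month cohort and 2815 to 3932 in the 12-month cohort, where a deposited unit is a CPM value divided by 1 scaling factor per library. Markers of the choroid plexus, which lines the neighbouring ventricle, ran from 56.9 to 10106 between libraries. In the 3-month cohort, 4 libraries at 1 mpi (Ctrl 1, Ctrl 3, AD 3 and AD 6) stood apart by Inhba, an activity-induced gene of the activin pathway, at 38.9 to 95.1 against 7.08 to 23.1 in all others. Another 2 (AD 1 at 1 mpi and Ctrl 4 at 5 mpi) stood apart by thalamic genes, with Tcf7l2 at 51.0 and 49.8 against at most 18.9 elsewhere. In those 2 thalamus-marked libraries the deposited level of Gabrd was 23.6 and 28.9, against 8.24 to 22.7 in the other 27 of the cohort. Values without these 6 libraries are given for some of the results below, not for all.

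The first comparison asked how the receptor genes differed after AD extract. In the 12-month cohort no member passed the threshold, but most measured members lay a little lower in AD than in Ctrl libraries. Among the lowest p-values were those of Gabra5 and of Grid1, a delta receptor that binds cerebellins at synapses. Averaged over the 3 times, 0 of 42 members were called at an adjusted p under 0.05 (limma), where 0.00996% of 20084 genes were. The log2 difference was negative for 35 of the 42 members, with a median of -0.06, whereas 49.1% of all genes were positive and their median was -0.00. At an unadjusted p under 0.05 stood 16 members and 3075 of all genes. The quasi-likelihood test of edgeR called 0 members and DESeq2 called 1, and limma also called 1 without Ctrl 4 of 3 mpi.

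Gabra5 ran from 170.5 to 237 deposited units (median 201) in 19 AD libraries and from 197 to 251 (median 218) in 18 Ctrl libraries. The ranges overlapped, 17 of 19 AD libraries lay below the Ctrl mean of their own time, and the log2 difference was -0.11 (SE 0.030, limma adjusted p = 0.130). Grid1 had 56.5 to 75.5 (median 67.8) in AD and 65.9 to 82.5 (median 71.4) in Ctrl libraries, 18 of 19 AD libraries below, a log2 difference of -0.10 (limma adjusted p = 0.142). The AMPA leader Gria1 averaged 1043 ± 77.6 deposited units in AD and 1109.7 ± 86.6 in Ctrl libraries (SD, n = 19 and 18), also lower in 18 of 19, with a log2 difference of -0.09 (limma adjusted p = 0.210) and a 95% interval from -0.15 to -0.02. The 65 partner genes, which are auxiliary subunits, scaffolds, transporters and synthetic enzymes of these receptors, gave 0 calls, 52 negative differences and a median of -0.05.

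**Figure D2:**
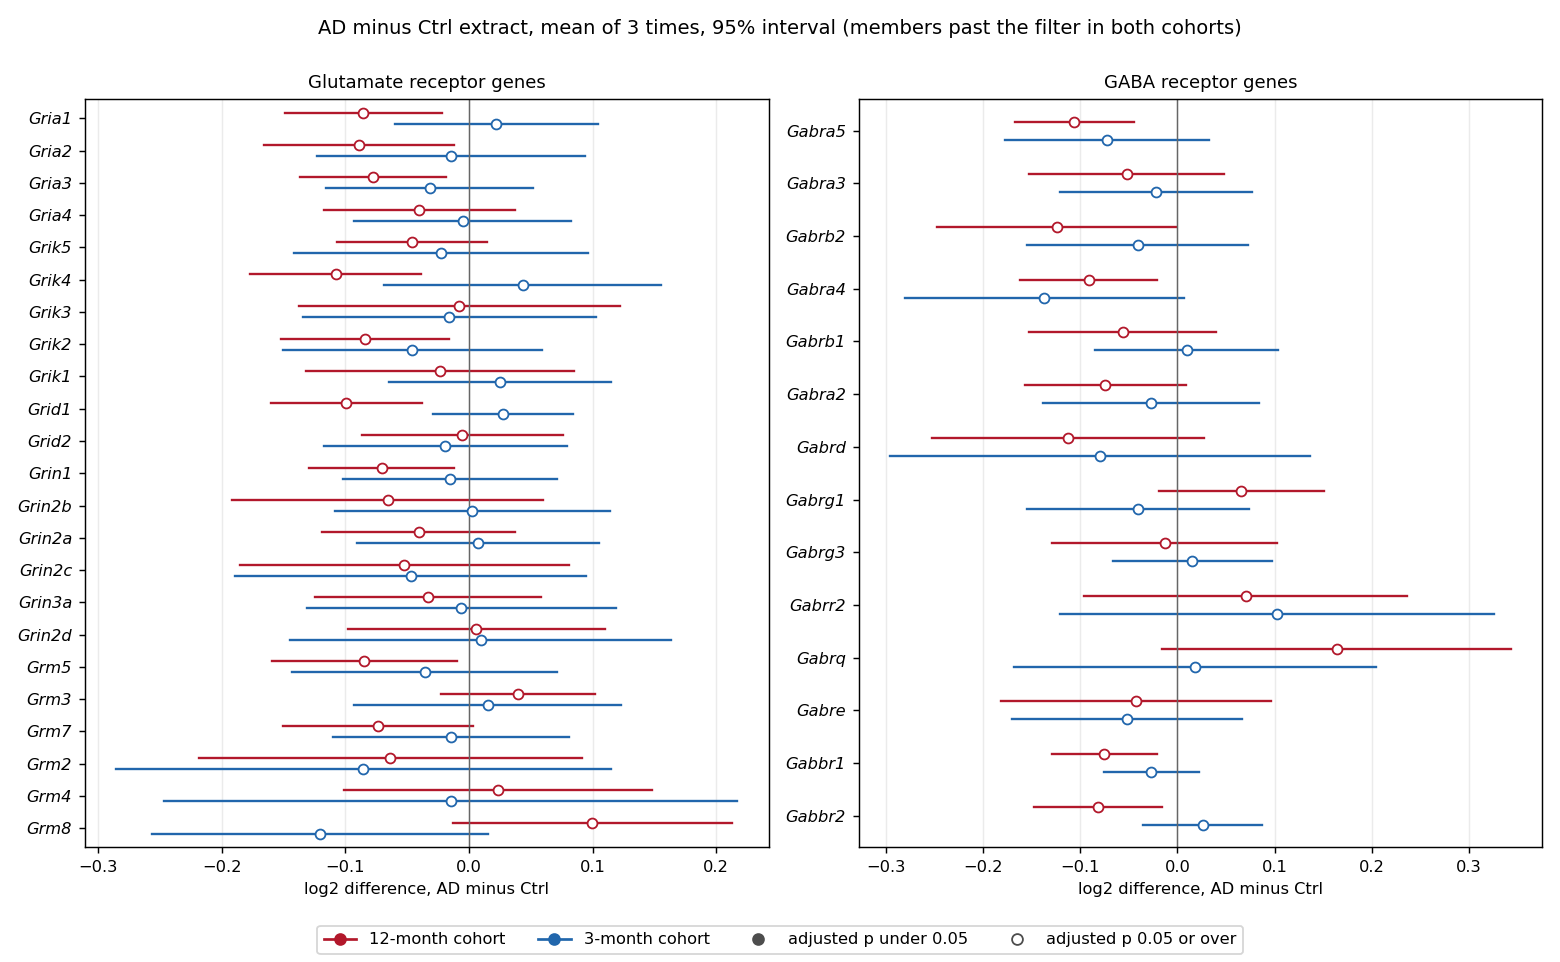
Log2 difference of AD minus Ctrl libraries for members that passed the filter in both cohorts, averaged over 1, 3 and 5 mpi, with bars for the 95% interval and open points for an adjusted p of 0.05 or over. Most members of the 12-month cohort lie a little below 0, and all points are open.

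In bulk tissue, fewer cells of a type and less RNA per cell cannot be told apart. In this comparison 0 markers were called in any of the 14 cell type lists. The 5 markers of excitatory neurons summed to 2815 to 3685 (median 3181) in AD libraries and 2943 to 3932 (median 3327) in Ctrl libraries, with a median log2 difference of -0.11. The 5 oligodendrocyte markers summed to 3273 to 5073 in AD and 2936 to 4257 in Ctrl libraries (median difference 0.17), and the 7 choroid plexus markers had a median sum of 2339 in AD and 416 in Ctrl libraries. The part of these in the members' differences was not tested.

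At single times in the 12-month cohort 0 of 42 members were called, where 0.00498%, 0% and 0.0548% of all genes were at 1, 3 and 5 mpi. Unadjusted p-values under 0.05 numbered 9, 2 and 6 among members, and edgeR and DESeq2 called 0. Here and below, such unadjusted counts stand without the share of all genes at that threshold. They are not read as an excess among members. At 1 mpi Grik4, a kainate subunit of the mossy fibre pathway, had 42.7 to 49.8 deposited units (median 46.0) in 6 AD libraries and 51.2 to 60.3 (median 52.7) in 5 Ctrl libraries. The groups did not overlap (log2 difference -0.22, limma adjusted p = 0.208). Grin1 did not overlap there either, with 300.1 to 331 (median 321) in AD and 337 to 414 (median 349) in Ctrl libraries (-0.18, limma adjusted p = 0.213).

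At 3 mpi small p-values were those of Gabra4 (log2 difference -0.16) and Grik2, a kainate subunit (-0.13, limma adjusted p = 0.995 for both). At 5 mpi they were those of Gabra5, with 183 to 220.3 (median 199) in 7 AD and 211 to 251 (median 220.0) in 7 Ctrl libraries (-0.14, adjusted p = 0.408), Gabra2 (-0.17, adjusted p = 0.495) and Gabbr1 (-0.11, adjusted p = 0.499). The change of the AD difference between 5 and 1 mpi gave 0 calls among members (0.00498% of all genes, limma; 0 by edgeR and DESeq2; 3 at an unadjusted p under 0.05). Its smallest p-values were those of Grik4 (0.23), Grm3 (-0.21) and Grin1 (0.17).

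In the 3-month cohort 0 of 43 members were called after AD extract, where 0% of 19976 genes were, and 0 members had an unadjusted p under 0.05 (limma; edgeR and DESeq2 also called 0). The median log2 difference was -0.02, and the 65 partners had a median of -0.00. Of the 43 members 30 were negative, a count given without the share of all genes and not read as a shift. Gabra4 ran from 101 to 146 deposited units (median 118) in 14 AD libraries and from 108 to 209 (median 132) in 15 Ctrl libraries, the highest being Ctrl 1 of 1 mpi, one of those with high Inhba (log2 difference -0.14, limma adjusted p = 1.00). Grm8, a presynaptic group III receptor, had a log2 difference of -0.12, and Gabra5 one of -0.07. For Gria1 the 95% interval ran from -0.06 to 0.10, and for Grin2b from -0.11 to 0.11. Single times also gave 0 calls (0% of all genes at each of 1, 3 and 5 mpi; 2, 0 and 0 members at an unadjusted p under 0.05), as did the AD difference at 5 minus that at 1 mpi (0%; 1 member), with 0 in edgeR and DESeq2. The smallest p-values were those of Gabrb1 (-0.19), Gabra4 (-0.24) and Gabrq (0.25) at 1 mpi, of Gabra6 (0.17), Grin2c (-0.19) and Gabra5 (-0.14) at 3 mpi, and of Gabra6 (-0.18), Gabrr2 (0.36) and Gabrr1 (-0.13) at 5 mpi. For the change of the AD difference they were those of Gabrb1 (0.30), Gabrq (-0.45) and Grin2c (-0.30).

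The AD difference itself was set against that of the younger cohort. For 0 of 44 members did it differ between cohorts (0% of 21297 genes, limma; 0 by edgeR and DESeq2; 5 at an unadjusted p under 0.05). Values, as the 12-month minus the 3-month difference, were -0.13 for Grid1, 0.22 for Grm8 and -0.15 for Grik4 (limma adjusted p = 0.849 for each). The AD difference of these members was thus not shown to differ between the cohorts.

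Differences between the cohorts were more common. In the older cohort the GABA-A subunits Gabra2 and Gabra3 were higher, and the NMDA subunits Grin2b, Grin2d and Grin1, the high-affinity kainate subunits Grik4 and Grik5, and the GABA-A subunit Gabrb1 were lower, with either extract. Each cohort is 1 table, so age, table and any batch cannot be told apart. Levels in these paragraphs are CPM on the joint TMM scale. In AD libraries 16 of 44 members were called, 5 higher and 11 lower in the 12-month cohort, where 20.3% of all genes were called, 11.2% higher and 9.08% lower. In Ctrl libraries 12 of 44 were called, 4 higher and 8 lower, where 21.2% of all genes were, 11.4% higher and 9.8% lower. The median log2 difference over members was -0.04 in AD and -0.03 in Ctrl libraries, and over all genes -0.00 in both. The share of members called higher was near or below that of all genes, and the share called lower was above it, a difference that was not tested.

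**Figure D3:**
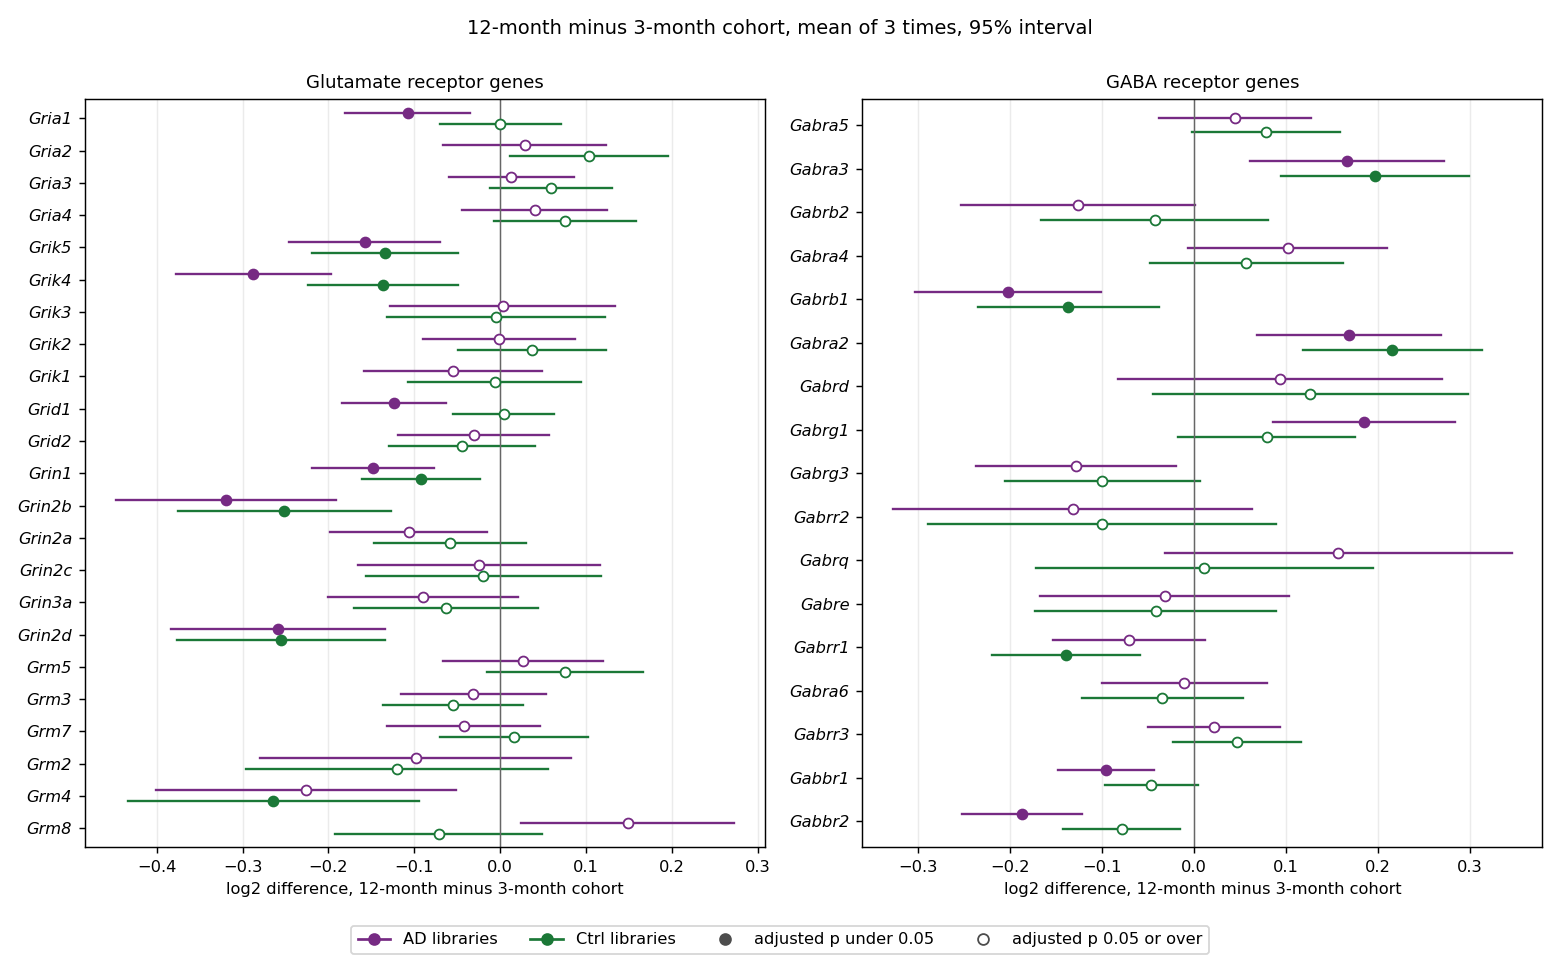
Log2 difference of the 12-month minus the 3-month cohort by member, in AD and in Ctrl libraries, with bars for the 95% interval and filled points for an adjusted p under 0.05. Gabra2 and Gabra3 lie above 0 and Grin2b, Grik4 and Grin2d below 0 with either extract.

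Called with both extracts in the same direction were 10 members, 4 higher and 6 lower, which is 62.5% of the AD calls and 83.3% of the Ctrl calls. For all genes, 2551 were shared, 59.1% of the AD calls and 56.5% of the Ctrl calls. No member was called in opposite directions. Of the members called in AD libraries, 4 of 5 higher ones (not Gabra3) and 10 of 11 lower ones kept their sign at each of 1, 3 and 5 mpi. In Ctrl libraries 3 of 4 higher ones (not Gabra2) and 8 of 8 lower ones did so.

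Grin2b, the GluN2 subunit that predominates early in life, had 425 to 802 CPM (median 630.0) in 19 AD libraries of the 12-month cohort and 653 to 888 (median 772) in 14 of the 3-month cohort. In Ctrl libraries it had 496 to 839 (median 674) in 18 of the 12-month cohort and 640.1 to 967 (median 793) in 15 of the 3-month cohort. The older libraries were lower but overlapped the younger ones with both extracts. The log2 difference was -0.32 in AD (SE 0.064, limma adjusted p = 0.000158) and -0.25 in Ctrl libraries (SE 0.062, adjusted p = 0.00220).

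By time, Grin2b averaged 566 ± 91.7, 629 ± 59.1 and 689 ± 67.0 at 1, 3 and 5 mpi in 12-month AD libraries (SD, n = 6, 6 and 7), against 784 ± 89.3, 764 ± 29.8 and 791 ± 119 in 3-month AD libraries (n = 6, 5 and 3). The older mean was the lower one at each time, and the older values differed most from the younger at 1 mpi. Grin2a, which replaces Grin2b in much of the forebrain after birth, was not called with either extract. The ratio of Grin2b to Grin2a per kb was 1.46 ± 0.14 in 12-month AD, 1.49 ± 0.13 in 12-month Ctrl, 1.69 ± 0.067 in 3-month AD and 1.69 ± 0.081 in 3-month Ctrl libraries (SD, n = 19, 18, 14 and 15). The ratio of Gria1 to Gria2 was 3.04 ± 0.21 in 12-month AD, 3.03 ± 0.25 in 12-month Ctrl, 3.34 ± 0.39 in 3-month AD and 3.24 ± 0.19 in 3-month Ctrl libraries (SD, same n).

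Grin2d, an NMDA subunit of interneurons, was lower by 0.26 on the log2 scale in AD (limma adjusted p = 0.00158) and 0.25 in Ctrl libraries (adjusted p = 0.00142), at 7.79 ± 1.12 CPM in 12-month and 9.43 ± 1.38 in 3-month AD libraries (SD, n = 19 and 14). In the 2 thalamus-marked younger libraries its deposited level was 12.3 and 13.8, the highest of the cohort. The 23 younger libraries that did not stand apart had 6.77 to 12.2. The obligatory Grin1 differed by -0.15 in AD (adjusted p = 0.00142) and -0.09 in Ctrl libraries (adjusted p = 0.0448). In AD libraries it had 301 to 377 (median 341) in the 12-month and 308 to 455 (median 359) in the 3-month cohort, with wide overlap. In the 4 younger libraries with high Inhba the median deposited level was 403 for Grin1 and 831 for Grin2b. In the 23 younger libraries that did not stand apart it was 362 and 774.

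Grik4 had 37.8 to 54.4 CPM (median 47.4) in 12-month AD and 49.8 to 76.3 (median 58.0) in 3-month AD libraries. Most older libraries lay below the lowest younger one. The log2 difference was -0.29 (SE 0.045, limma adjusted p = 2.61e-06), the lowest p-value of any member, and in Ctrl libraries, at 43.1 to 59.9 (median 51.3) in the 12-month and 49.1 to 75.2 (median 55.5) in the 3-month cohort, it was -0.14 (adjusted p = 0.0195). In the 4 younger libraries with high Inhba, Grik4 had 54.4 to 77.0 deposited units (median 72.2). The 23 younger libraries that did not stand apart had 49.4 to 64.4 (median 55.0). Grik5 differed by -0.16 in AD (limma adjusted p = 0.00625) and -0.13 in Ctrl libraries (adjusted p = 0.0179). In AD libraries it had 116 to 149 CPM (median 128) in the 12-month and 113 to 203 (median 137) in the 3-month cohort, with wide overlap. The highest value was that of AD 6 of 1 mpi, one of the libraries with high Inhba. Grm4, a presynaptic group III receptor, was lower by 0.26 on the log2 scale in Ctrl libraries (adjusted p = 0.0193), a call that ended without Ctrl 4 of 3-month 5 mpi (-0.20, adjusted p = 0.0573) and without the 6 libraries that stood apart (-0.19, adjusted p = 0.0676).

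Gabra3 was higher by 0.17 in AD (limma adjusted p = 0.0170) and 0.20 in Ctrl libraries (adjusted p = 0.00351), and Gabra2 by 0.17 (adjusted p = 0.0106) and 0.22 (adjusted p = 0.000726). Gabrg1, a gamma subunit also found in glia, was called in AD libraries, at 39.4 ± 4.20 in the 12-month and 34.3 ± 3.27 in the 3-month cohort (SD, n = 19 and 14; log2 difference 0.19, adjusted p = 0.00447). Gabrb1, the beta subunit next to Gabra4, was lower by 0.20 in AD (adjusted p = 0.00229) and 0.14 in Ctrl libraries (adjusted p = 0.0384). That Ctrl call ended without the 4 libraries with high Inhba (adjusted p = 0.0640) and when any 1 of 7 libraries was left out (3-month Ctrl 4 of 1 mpi, Ctrl 1 and 4 of 3 mpi and Ctrl 2 of 5 mpi, and 12-month Ctrl 3 and 4 of 1 mpi and Ctrl 4 of 3 mpi, with adjusted p up to 0.0733).

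Gabbr2, the GABA-B subunit that couples to the G protein, had 251 to 327 CPM (median 282) in 12-month AD and 285 to 364 (median 319.7) in 3-month AD libraries. The older libraries were lower, with overlap (log2 difference -0.19, SE 0.033, limma adjusted p = 2.08e-05). It was not called in Ctrl libraries. Further calls in AD libraries, beyond the 10 largest differences, were Grid1 at -0.12, Gria1 at -0.11 and Gabbr1 at -0.09. In Ctrl libraries Gabrr1 was called at -0.14 on levels of at most 0.605 CPM. That highest value, of 29 reads, was in the thalamus-marked Ctrl 4 of 3-month 5 mpi. Gabrr1 failed the filter in the 12-month cohort alone, so this call rests on few reads.

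Most of the partner genes that were called were lower in the older cohort. In AD libraries 3 of 65 were higher and 24 lower, with Kctd16, an auxiliary subunit of GABA-B receptors, at -0.40, Cacng5 and Cacng8, which bind AMPA receptors, at -0.34 and -0.28, and the scaffold Shank1 at -0.31. In Ctrl libraries 3 were higher and 13 lower, with Cacng5 at -0.37, Kctd16 at -0.32 and Shank1 at -0.22 (limma adjusted p at most 0.0475 for each). Over all 21297 genes tested, 4313 were called in AD and 4515 in Ctrl libraries, with the shares by direction given above. Whether the partners differed from all genes was not tested.

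Markers of other cells moved with the cohorts. Of 5 microglia markers, 5 were higher in 12-month than in 3-month AD libraries and 3 in Ctrl libraries, with median sums of 455 and 374 in AD and of 403 and 358 in Ctrl libraries of the older and younger cohort. Of 7 choroid plexus markers 0 were called in AD libraries and 7 were lower in Ctrl libraries (median sum 416 in the 12-month and 4342 in the 3-month cohort), and 2 of 5 excitatory neuron markers were lower in AD libraries. With a choroid plexus covariate Gabra3 was no longer called in Ctrl libraries (0.14, adjusted p = 0.0540). Without the 6 libraries that stood apart, Gabra2 and Gabra3 were no longer called in AD libraries (0.13 for both, adjusted p = 0.0508 and 0.0927). The Gabra2 call in AD libraries also ended without 3-month AD 2 of 5 mpi (adjusted p = 0.0516), and that of Gabra3 without AD 3 of that group (0.0538). A level of Xist above 100 was found in 10 of 19 AD and 10 of 18 Ctrl libraries of the 12-month cohort, and in 6 of 14 AD and 4 of 15 Ctrl libraries of the 3-month cohort, and with log2 Xist as a covariate no named call ended.

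**Figure D4:**
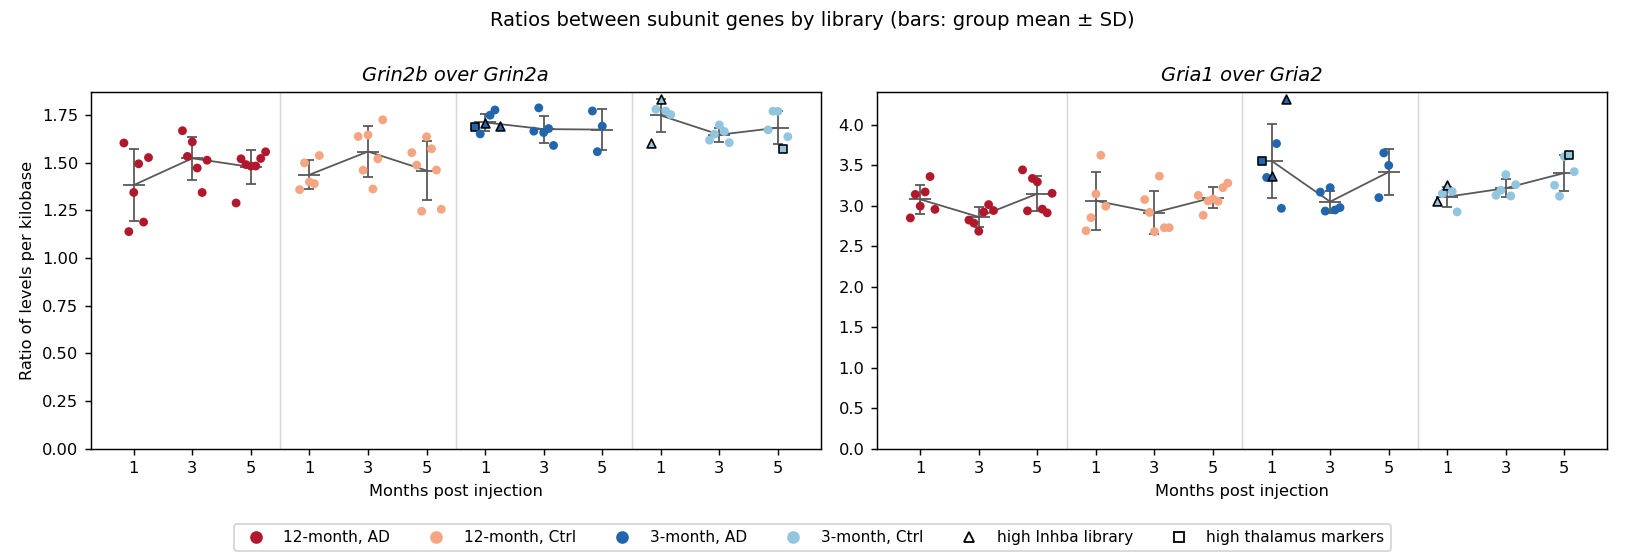
Ratios of levels per kilobase (linear axes) in each library by group and months post injection, for Grin2b over Grin2a and Gria1 over Gria2, with bars for group mean ± SD, triangles for high Inhba and squares for high thalamus markers. The Grin2b to Grin2a ratio averages 1.46 and 1.49 in the 12-month AD and Ctrl libraries and 1.69 in both sets of 3-month libraries.

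The last comparison followed the receptor genes with time after injection, and the calls lay mostly in the younger cohort. In 3-month Ctrl libraries Gabrd, the delta subunit of extrasynaptic receptors of dentate granule cells and thalamus, rose between 1 and 5 mpi, Grik1 and Grid1 rose less, and Gabra2 and Gabrb1 fell. These were 5 of 43 members called, 3 higher and 2 lower, where 9.19% of all genes were called, 5.13% higher and 4.06% lower (limma). The members' share of calls was near that of all genes. The 65 partners gave 4 higher, among them Cacng3 (0.35), and 2 lower, Homer1 (-0.69), a scaffold of group I metabotropic receptors, and Plcl1 (-0.35). Their share of calls was also near that of all genes. Ctrl 1 and Ctrl 3 of 1 mpi had high Inhba, and partner values without them are not given here.

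Gabrd had deposited levels of 18.9, 17.8, 20.9, 28.9 and 22.7 in the 5 Ctrl libraries of 5 mpi, against 11.1, 14.1, 9.29, 14.1 and 13.1 in those of 1 mpi. Every library of 5 mpi lay above every library of 1 mpi, the highest being Ctrl 4, one of the libraries with thalamic markers, and the lowest Ctrl 3 of 1 mpi, one with high Inhba. The log2 difference was 0.77 (SE 0.175, limma adjusted p = 0.00825). Without the 2 libraries of 1 mpi with high Inhba and their AD counterparts it was 0.61 (adjusted p = 0.0440), and without all 6 libraries that stood apart 0.51 (adjusted p = 0.0352). At 3 mpi the Ctrl libraries had 17.8, 14.0, 17.2, 13.5 and 17.4. Their mean lay between those of the other times, and 2 of them lay within the range of 1 mpi.

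In 3-month AD libraries Gabrd had 17.8, 20.9 and 15.9 at 5 mpi, against 23.6, 14.4, 8.24, 13.9, 11.5 and 12.3 at 1 mpi. The highest value was that of AD 1 of 1 mpi, which carried thalamic markers, and through it the groups overlapped (log2 difference 0.42, limma adjusted p = 0.210). The other 5 libraries of 1 mpi, at 8.24 to 14.4, all lay below those of 5 mpi. Without the thalamus-marked libraries Gabrd was called (0.57, adjusted p = 0.0394), whereas it was not without the 4 with high Inhba (0.23, adjusted p = 0.435) or without all 6 (0.43, adjusted p = 0.0617).

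Gabra2 had 126, 122, 108, 102 and 110.4 deposited units in Ctrl libraries of 5 mpi, against 139, 134, 158, 139 and 143 at 1 mpi. The groups did not overlap (log2 difference -0.32, limma adjusted p = 0.0250). Gabrb1 had 295, 293, 253, 255 and 266 at 5 mpi and 317, 293, 359, 355 and 307 at 1 mpi, which overlapped narrowly (-0.26, adjusted p = 0.0338).

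Grid1 had 75.7, 75.0, 78.6, 74.3 and 77.2 at 5 mpi, against 61.8, 73.2, 72.1, 68.8 and 65.95 at 1 mpi, with no overlap (0.16, limma adjusted p = 0.0315). Grik1, a kainate subunit of interneurons, had 17.5, 16.0, 17.5, 20.1 and 15.2 at 5 mpi, against 13.4, 14.3, 13.7, 13.8 and 17.3 at 1 mpi, where Ctrl 5 reached into the later group (0.24, adjusted p = 0.0378).

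**Figure D5:**
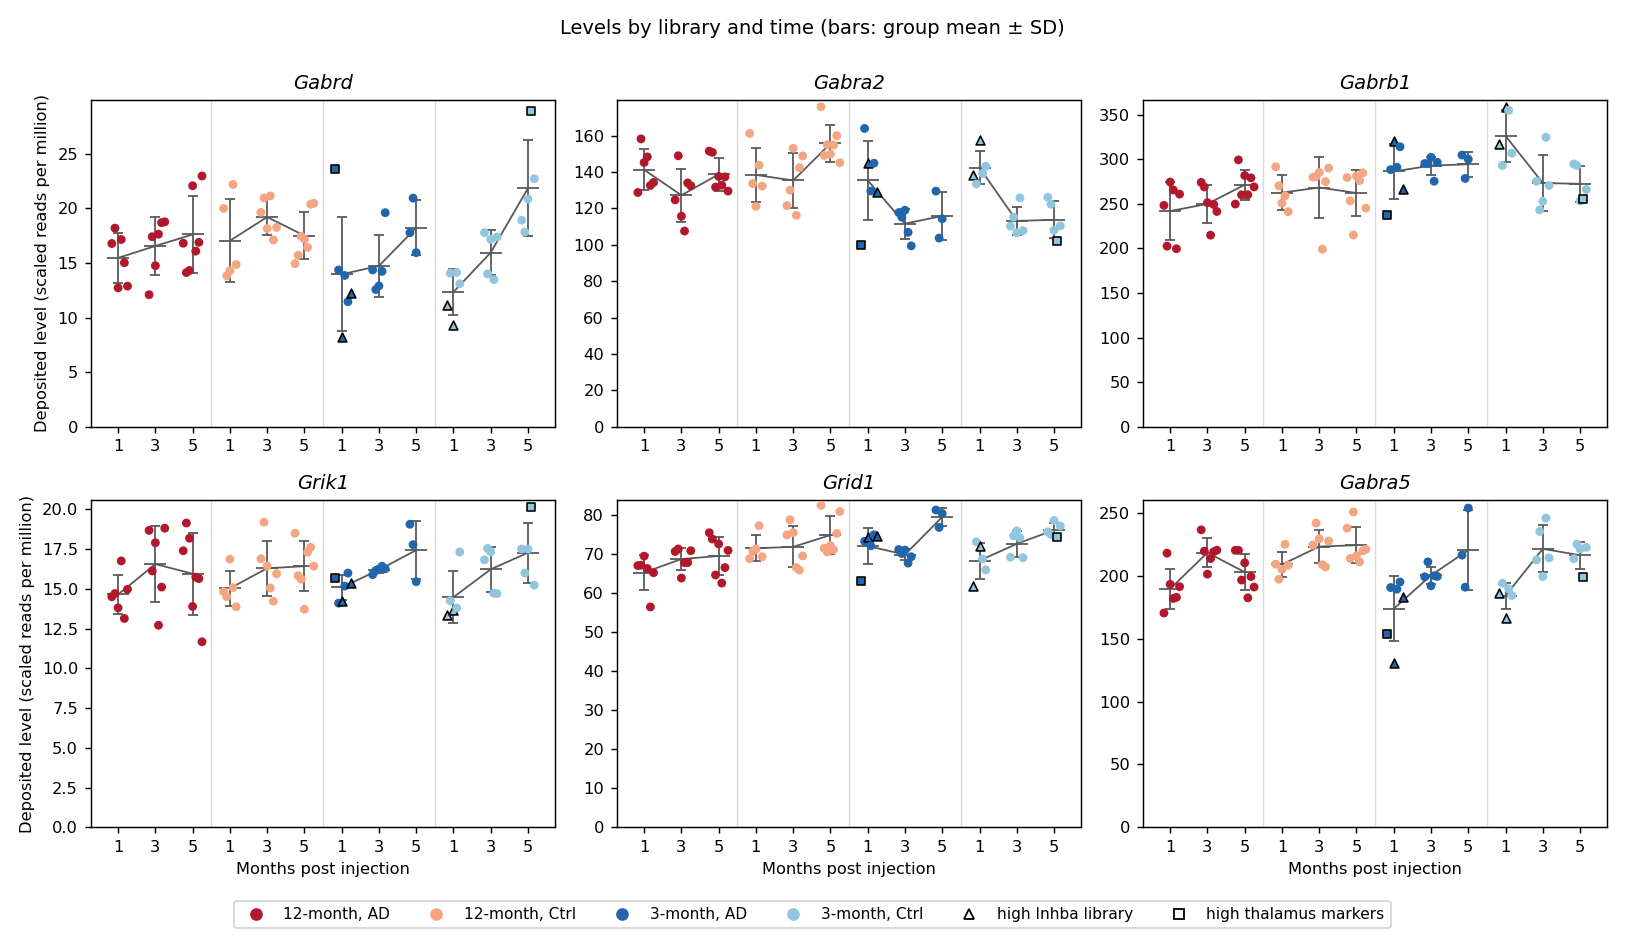
Deposited level of Gabrd, Gabra2, Gabrb1, Grik1, Grid1 and Gabra5 in every library at 1, 3 and 5 mpi by cohort and extract, with bars for group mean ± SD, triangles for high Inhba and squares for high thalamus markers. In the 3-month Ctrl libraries Gabrd runs from 9.29 to 14.1 at 1 mpi and from 17.8 to 28.9 at 5 mpi.

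The other calls depended on few libraries. Without the 2 thalamus-marked libraries Gabrd (0.67), Gabra2 (-0.29) and Grid1 (0.17) were called. Without the 4 libraries with high Inhba only Gabrd was called, and the values were -0.29 for Gabra2 (adjusted p = 0.119), -0.22 for Gabrb1 (0.132), 0.14 for Grid1 (0.103) and 0.18 for Grik1 (0.215). Leaving out any 1 of Ctrl 1, 3 or 4 of 1 mpi or Ctrl 3, 4 or 5 of 5 mpi left 1 to 3 of the 5 calls, and Gabrd kept its call with each of the 29 libraries left out in turn (0.67 to 0.84). Oligodendrocyte markers moved with the times, 2 of 5 being lower at 5 mpi (sums 2799 to 4452 at 5 mpi and 3904 to 4835 at 1 mpi), and 1 of 5 microglia markers was lower, with sums of 334 to 358 at 5 mpi and 377 to 412 at 1 mpi that did not overlap. The calls of Grik1 and Grid1 also ended with a choroid plexus covariate (adjusted p = 0.0802 and 0.0623), and that of Grik1 with an Xist covariate (0.0551); choroid plexus sums ran from 95.2 to 4321 at 5 mpi and from 2321 to 5930 at 1 mpi. Of 3 dentate granule cell markers 1 was higher, with sums of 166 to 239 at 5 mpi and 82.3 to 252 at 1 mpi, and 1 of 9 thalamic markers was lower. Of 7 markers of inhibitory neurons 1 was higher, the interneuron peptide Sst, at 145 ± 10.2 at 5 mpi and 109 ± 15.8 at 1 mpi (SD, n = 5 each; log2 difference 0.43, limma adjusted p = 0.00612), while the sums of the list overlapped (875 to 1043 and 784 to 960). Of the 5 excitatory neuron markers 1 was higher, Nrgn, at 753 ± 28.5 and 640 ± 33.0 (0.23, adjusted p = 0.0387), and the list summed to 3129 to 3740 and 2925 to 4054. Their part in the members' changes was not tested.

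Shorter steps in 3-month Ctrl libraries gave 0 member calls (limma). Without the thalamus-marked libraries 2 were called at 3 minus 1 mpi, Gabra2 (-0.33, adjusted p = 0.0193) and Gabrb1 (-0.26, adjusted p = 0.0494). For 3 minus 1 mpi, where 1.8% of all genes were called, 9 members had an unadjusted p under 0.05, led by Gabra2 (-0.33, adjusted p = 0.0552), Gabrb1 (-0.26, adjusted p = 0.0717) and Gabra5 (0.26, adjusted p = 0.0992), and DESeq2 called Gabra2 and Gabrb1 where edgeR called 0. For 5 minus 3 mpi (0.00501% of all genes; 2 members at an unadjusted p under 0.05) the smallest p-values were those of Gabrd (0.42), Grin2d (0.29) and Grm4 (0.37, limma adjusted p = 0.433 to 0.589).

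In 3-month AD libraries 1 of 43 members was called between 1 and 5 mpi, where 5.69% of all genes were, 1.99% higher. Gabra5 had 217, 191 and 254 deposited units at 5 mpi, against 153, 191, 131, 189, 195 and 183 at 1 mpi. The groups overlapped, and the low values of 1 mpi were those of AD 1 and AD 3, both of the libraries that stood apart (log2 difference 0.35, limma adjusted p = 0.0314). The call ended without the thalamus-marked libraries (0.31, adjusted p = 0.0690), without all 6 (0.19, adjusted p = 0.125), and without AD 1 of 1 mpi (adjusted p = 0.0672), AD 1 of 5 mpi (0.108) or AD 3 of 5 mpi (0.24, 0.225). In Ctrl libraries of the same cohort Gabra5 gave 0.23 (adjusted p = 0.0825).

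Other members were called in the same AD libraries when those that stood apart were left out. Without the thalamus-marked ones these were Gabrd, given above, Gabra2 (-0.30, limma adjusted p = 0.0418) and Gabrr2, a rho subunit near 0 (0.64, adjusted p = 0.0458). Gabrr2 had 0.563, 2.91 and 1.32 deposited units at 5 mpi, against 0.377 to 0.698 in the 5 libraries of 1 mpi then kept, with overlap. Without the 4 with high Inhba, Gabra5 was still called (0.27, adjusted p = 0.0360), with Grin1 (0.31, adjusted p = 0.00182) and Grid1 (0.17, adjusted p = 0.0327). Without all 6 the calls were Grin1 (0.27, adjusted p = 0.00837) and Gabra2 (-0.33, adjusted p = 0.0291). The share of all genes given for this interval refers to all libraries kept. Shares under these exclusions are not given here, so these calls are not set against all genes. With all libraries kept, Grin1 gave 0.21 (adjusted p = 0.110) and Gabra2 -0.21 (adjusted p = 0.214).

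Markers moved over the same interval in AD libraries. At 5 mpi 3 of 5 microglia markers were lower, with sums of 332 to 354 at 5 mpi and 378 to 511 at 1 mpi that did not overlap. Of 7 choroid plexus markers 6 were lower (sums 56.9 to 809.7, median 184, at 5 mpi and 172 to 7798, median 5094, at 1 mpi), and with these as a covariate Gabra5 gave 0.54 (adjusted p = 0.0125). Of 5 oligodendrocyte markers 2 were lower, with sums of 3170 to 3942 at 5 mpi and 3957 to 7082 at 1 mpi, and 2 of 5 astrocyte markers were also lower (1365 to 1634 and 1369 to 1601). Sst was higher (0.41, limma adjusted p = 0.0199), as was Nrgn (0.28, adjusted p = 0.0333), but the sums of their lists overlapped between the times. The 7 inhibitory neuron markers summed to 897 to 970 at 5 mpi and 783 to 994 at 1 mpi. For the 5 excitatory neuron markers the sums were 3198 to 4244 and 2696 to 4078. Apart from the covariate value, their part in the change of Gabra5 was not tested.

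Between 3 and 5 mpi, 2 of 43 members were called in 3-month AD libraries, both higher, where 5.23% of all genes were called, 1.49% higher. Gabbr2 had 344, 339.6 and 346 at 5 mpi, against 297, 292, 296, 283 and 316 at 3 mpi (0.21, limma adjusted p = 0.0308). Grid1 had 81.3, 76.8 and 80.4 at 5 mpi, against 71.2, 70.1, 71.0, 67.7 and 69.3 at 3 mpi (0.18, adjusted p = 0.0386). Neither overlapped. All 7 choroid plexus markers were lower at 5 mpi (sums 56.9 to 809.7 at 5 mpi and 5562 to 7297 at 3 mpi). With these as a covariate neither member was called (0.20, limma adjusted p = 0.299, and 0.15, adjusted p = 0.410). Because the sums did not overlap between the times, the covariate and time cannot be told apart here. Each call also rested on single libraries: that of Gabbr2 was lost without any one of AD 1 to 4 of 3 mpi and AD 1 to 3 of 5 mpi, and that of Grid1 without any one of AD 1 to 5 of 3 mpi and AD 1 and 3 of 5 mpi. Without the thalamus-marked libraries both calls held, without the 4 with high Inhba Grin1 joined them (0.24, adjusted p = 0.00543), and without all 6 Grin1 (0.24, adjusted p = 0.00356) and Grik4 (0.20, adjusted p = 0.0492) did. For 3 minus 1 mpi (0.586% of all genes) 0 members were called by limma, by edgeR and by DESeq2, 10 had an unadjusted p under 0.05, and the smallest p-values were those of Gabbr2 (-0.15), Grik4 (-0.27) and Gabra2 (-0.26). At that step Gabra2 was called without the thalamus-marked libraries (-0.35, limma adjusted p = 0.0190) and without all 6 (-0.38, adjusted p = 0.0282).

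In the 12-month cohort few members moved with time. Between 1 and 5 mpi 0 of 42 were called in AD libraries (0.762% of all genes, 0.159% higher and 0.602% lower; 14 at an unadjusted p under 0.05; 0 by edgeR and 1, Grin1, by DESeq2) and 0 in Ctrl libraries (0.0249%; 5 at an unadjusted p under 0.05; 0 by edgeR and DESeq2). Grin1 had 334 to 378 (median 355) at 5 mpi and 300.1 to 331 (median 321) at 1 mpi in AD libraries, without overlap (0.16, limma adjusted p = 0.102). Gria1 gave 0.16 (adjusted p = 0.130) and Grm4 -0.31 (adjusted p = 0.150). In Ctrl libraries Gria1 gave 0.14 (adjusted p = 0.580).

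The single call was Gabra5 at 3 minus 1 mpi in AD libraries, where 0.832% of all genes were called, 0.239% higher and 0.593% lower. It had 201 to 237 (median 219) in 6 libraries of 3 mpi and 170.5 to 218 (median 187) in 6 of 1 mpi, with overlap (0.21, limma adjusted p = 0.0492). Leaving out a single library ended it in 25 of 37 cases, with adjusted p-values up to 0.146, and it was also lost in the edgeR test (0.0528). Over the same step 1 of 5 microglia markers was lower, with sums of 381 to 462 (median 403) at 3 mpi and 453 to 571 (median 494) at 1 mpi. Choroid plexus sums ran from 222 to 10106 (median 502) at 3 mpi and from 1195 to 8051 (median 4466) at 1 mpi, with 0 of 7 markers called (limma; 0 at an unadjusted p under 0.05). The call of Gabra5 ended with a choroid plexus covariate (0.15, adjusted p = 0.0939) or a thalamus covariate (0.17, adjusted p = 0.263), and the part of the microglia markers was not tested. The other steps gave 0 calls by limma and edgeR, and DESeq2 called 2 members, Grik4 among them, at 5 minus 3 mpi in AD libraries: 5 minus 3 mpi in AD libraries (0.194%, 0.144% higher and 0.0498% lower; 7 members at an unadjusted p under 0.05; Grik4 0.23, Grin2a 0.17), 3 minus 1 mpi in Ctrl libraries (0.0199%; 6 members; Grik4 -0.18, Gabra4 0.17) and 5 minus 3 mpi in Ctrl libraries (0.214%, 0.124% higher and 0.0896% lower; 5 members; Gabra4 -0.18, Gabra2 0.21).

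The change between 1 and 5 mpi in Ctrl libraries was itself compared between cohorts, a comparison added after the data were seen. Of 44 members 2 were called, 1 in each direction, where 2.74% of all genes were, 1.28% higher and 1.46% lower. Gabra2 had 149, 155, 149, 155, 159.7, 146 and 177 CPM on the joint scale at 5 mpi and 161, 134, 121, 142 and 132 at 1 mpi in 12-month Ctrl libraries, whereas the 3-month Ctrl libraries had 128, 123, 107, 102 and 111 at 5 mpi, against 139.5, 134, 158, 141 and 144 at 1 mpi. At 5 mpi the older libraries all lay above the younger ones, and at 1 mpi they overlapped. The difference of the 2 changes was 0.51 (SE 0.119, limma adjusted p = 0.0111).

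Gabrd gave -0.71 (SE 0.210, adjusted p = 0.0489). It averaged 17.5 ± 2.17 at 5 mpi and 17.0 ± 3.73 at 1 mpi in 12-month Ctrl libraries (SD, n = 7 and 5), against 21.9 ± 4.35 and 12.4 ± 2.13 in 3-month Ctrl libraries (n = 5 each). Without the 4 libraries with high Inhba neither was called (Gabra2 0.47, adjusted p = 0.0537, and Gabrd -0.55, adjusted p = 0.197). The Gabrd call was lost on leaving out a single library in 32 of 66 cases, including Ctrl 1 and 3 of 1 mpi and Ctrl 3, 4 and 5 of 5 mpi in the 3-month cohort, with adjusted p-values up to 0.126. That of Gabra2 held with each library left out (0.46 to 0.56, adjusted p up to 0.0324).

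Spread between libraries of a group also set members apart. In the 12-month cohort the within-group SD of log2 levels was lowest for Gabbr1, at 0.077, and had a median of 0.146 over all genes tested. Grin1 (0.088) varied nearly as little. Gabrd had 0.218 and Grm2, a presynaptic group II receptor, 0.247. In the 3-month cohort the values were 0.051 for Gabbr1, 0.069 for Grid1, 0.295 for Gabrd and 0.317 for Grm4, and in the thalamus-marked libraries Grm4 stood at 18.0 and 20.1 deposited units, the 2 highest values of the cohort.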

How the data were processed

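Hippocampal poly(A) RNA-seq was analysed in 66 libraries, 37 in the 12-month and 29 in the 3-month table, with 55421 genes each. Per the submitters' processing notes the authors used STAR, Picard and edgeR on GRCm38; no version, annotation, counting rule or strand setting is stated there. The deposited values are a signal that the authors made by dividing CPM by 1 scaling factor per library. Whole reads were recovered from the values: 100% came out whole within 0.01 reads. Gene lengths and positions came from GENCODE vM21 (96.2% of names matched, all 47 members among them).

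limma 3.58.1 (R 4.3.3) tested log2(deposited value + 1), fitting each group its own mean, with the spread shared over a cohort's 6 groups, or, between cohorts, over all 12 groups of both tables scaled together by TMM; fold changes on this scale understate changes of low genes. Genes were kept by edgeR's filterByExpr, and calls needed an adjusted p (Benjamini-Hochberg over all genes tested) under 0.05. The script logic was tested on simulated data. Alternatives were the edgeR 4.0.16 quasi-likelihood test and DESeq2 1.42.0 on recovered reads, other scaling, filter, pseudocount and spread, covariates, a replicate block and leaving out libraries. On recovered reads edgeR called 2 genes for AD minus Ctrl over the 12-month cohort, 0 over the 3-month cohort, 1792 for 5 minus 1 mpi in 3-month Ctrl libraries, and 4202 and 4337 between cohorts in AD and Ctrl libraries.

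Named in full were members called in a comparison, up to the 10 of largest fold change, or the 3 of smallest p where none was called, with each family's highest member and those near 0; further calls are named beyond that rule, and some genes that it names are not reported here, though counts include them. Members and lists were chosen with earlier results of these data known.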

Additional observations from a re-analysis of the deposited data

Results flagged for a closer look

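Of 297 tests for a single library far from the rest of its group, over 27 named members, 28 found one, where chance gives about 1 in 20. Levels are deposited units. In 3-month libraries of 1 mpi, Grik1 stood at 17.3 in Ctrl 5 (the others 13.4 to 14.3) and Grin2b at 965 in Ctrl 3 (774 to 828). In the AD group of that time, AD 1, which had high thalamus markers, stood low for Gria1 at 920.3 (1075 to 1137) and Grid1 at 63.0 (72.1 to 75.0). There AD 3 and AD 6, with high Inhba, stood at 25.9 for Gabrg1 (33.2 to 36.5) and at 205 for Grik5 (114 to 141).

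In 3-month AD libraries of 3 mpi, AD 5 stood high for Gabra4 at 142 (116 to 123), Gabrd at 19.6 (12.6 to 14.4) and Grik2 at 82.8 (71.4 to 73.9), AD 2 for Gabra3 at 102 (94.1 to 94.4), and AD 4 low for Gabrb1 at 275 (295 to 302). Gria1 reached 1287 in Ctrl 4 of 3 mpi (1081 to 1123), and Gabrr1 0.604 in Ctrl 4 of 5 mpi (0.191 to 0.225).

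In 12-month libraries of 1 mpi, Ctrl 4 stood at 103 for Gabra3 (117 to 122) and 1189 for Gria1 (1006 to 1034), Ctrl 3 at 1.25 for Gabrr2 (0.560 to 0.715), AD 2 at 135 for Grik5 (123 to 126) and AD 5 at 56.5 for Grid1 (65.2 to 69.5). At 3 mpi, Ctrl 4 was low for Gabrb1 at 199 (275 to 290.1), Ctrl 1 for Gabrq at 0.794 (1.33 to 1.65), Ctrl 5 for Grm4 at 5.16 (8.28 to 9.69) and AD 3 for Gria1 at 903 (1014 to 1071). At 5 mpi, Ctrl 1 stood at 0.220 for Gabra6 (0 to 0.086), 2.58 for Gabrq (0.763 to 1.27) and 7.16 for Grm4 (8.06 to 8.73), Ctrl 2 at 6.88 for Grin2d (7.63 to 7.99), Ctrl 6 at 149 for Grik5 (123 to 133) and AD 6 at 83.1 for Gabra3 (105 to 115).

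The change between 1 and 5 mpi in Ctrl libraries differed between cohorts for Gabra2, by 0.51, and for Gabrd, by -0.71, on the log2 scale (limma, 12-month minus 3-month). For Gabra2 the groups also moved apart, with a mean of 156 in 12-month and 114 in 3-month Ctrl libraries of 5 mpi. In a further 3 patterns, members had every library of one cohort above and every one of the other below the mean it was set against. They were Gabrg1 for AD against Ctrl at 3 mpi (AD means 38.0 in older and 33.95 in younger libraries), Grik4 for 5 against 1 mpi in AD libraries (51.9 and 59.7 at 5 mpi) and Grin2d for 5 against 1 mpi in Ctrl libraries (7.63 and 11.0 at 5 mpi). The differences for Gabrg1 and Grik4 were not tested, and that for Grin2d was -0.38 on the log2 scale (limma adjusted p = 0.148). The highest Grin2d value of the younger Ctrl libraries of 5 mpi, 13.8, was that of the thalamus-marked Ctrl 4.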

How the results depend on the processing

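Counts of called members moved most in the small contrasts. In the 12-month cohort, DESeq2 called 1 for AD minus Ctrl and 1 for 5 minus 1 mpi in AD libraries, each 0 by limma. Over its steps between neighbouring times, 1 call became 0 with no filter, a pseudocount of 0.1, robust spread, a thalamus covariate, edgeR or only the groups compared, and 3 with DESeq2. For 5 minus 1 mpi in 3-month Ctrl libraries, 5 calls became 2 with no filter, 3 with only the groups compared, 3 without the 2 thalamus-marked libraries, 1 without the 4 with high Inhba and 1 without all 6. For the same in AD libraries, 1 call became 0 with no filter or only the groups compared, 2 with the replicate block, edgeR, DESeq2 or without all 6, 4 with a thalamus covariate, and 3 without the 4 or the 2. Over the 3-month steps, 2 calls became 1 with relative log expression scaling, 0 with no filter or a choroid plexus covariate, 5 with a thalamus covariate, without the 2 or without all 6, 4 with DESeq2 and 6 with only the groups compared. For the change of Ctrl libraries between cohorts, 2 calls became 1 with relative log expression scaling, no filter, a thalamus covariate, the replicate block or without the 2, and 0 without the 4 or all 6. The cause was not tested. The exclusions of these libraries were chosen after seeing the data. Shares of all genes called, as given in the text, refer to all libraries kept.

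With each library left out in turn, counts ran from 0 to 1 for AD minus Ctrl and 0 to 2 for the steps (12-month cohort), and for the younger libraries from 1 to 6 for Ctrl 5 minus 1 mpi, 0 to 2 for AD 5 minus 1 mpi and 0 to 5 for the steps. They ran from 14 to 18 and 10 to 13 for the cohorts in AD and Ctrl libraries, and from 1 to 3 for the change between cohorts. No value changed sign after being called. Of single-member values, 1129 kept their direction and side of the threshold over the other settings, 52 lost and 15 gained a call.

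Most libraries with the same replicate number did not deviate together (correlations from -0.39 to 0.64). The highest value was that of Ctrl 3 and AD 3 of 3-month 1 mpi, both with high Inhba. The numbers were taken not to pair libraries. As a block they moved only the counts given above by over 1.5 times. Depth of at least 42462638 reads leaves members near 0, such as Gabra6 and Gabrr1, resting on few reads.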
